A study of Mus musculus with 23 samples.

Results

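UDP-glucuronosyltransferases (Ugt enzymes) and Ugdh, the enzyme that makes their sugar donor, were followed in the ileum of mice given a ligand of the pregnane X receptor. The genes were taken from a list of 10, by the gene name that the array gives to a probe. Of these, 7 had a probe (Ugt2a3, Ugt2b5, Ugt2b34, Ugt2b35, Ugt2b36, Ugt1a6a and Ugdh), Ugdh had 2, and all 8 probes were well above background on all 23 arrays. Ugt1a1, Ugt1a2 and Ugt1a7c had no probe of their own name. The brightest probe of a gene stands for it, and the array measured 17727 genes in this way. Single-colour Agilent arrays were run on ileum RNA from male mice, 1 array per animal. Wild-type (WT) mice were C57BL/6J animals bought at 6 weeks of age. Mice without the receptor gene (Pxr-/-, gene Nr1i2) were backcrossed and bred in house, so genotype and breeding origin cannot be told apart, and their age is not given in the sources used here. Both genotypes received PCN (pregnenolone 16α-carbonitrile, which activates the mouse receptor) at 100 mg/kg in corn oil once a day for 4 days by injection into the abdomen, or the oil alone (CONT). The final dose came 6 h before death, at ZT6, and the mice had not been fasted. The groups held 6 arrays (WT CONT), 5 (WT PCN), 6 (Pxr-/- CONT) and 6 (Pxr-/- PCN), in 2 wash batches.

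Ugt enzymes sit in the membrane of the endoplasmic reticulum and join glucuronic acid, taken from UDP-glucuronate, to bilirubin, steroids, bile acids, drugs and plant compounds, which makes them soluble enough to be exported. The Ugt1a enzymes come from a single locus in which each has its own first exon, spliced to a set of shared exons at the 3′ end, whereas the Ugt2 enzymes come from separate, closely related genes standing side by side. The gut wall is a site where swallowed compounds are conjugated before they reach the liver, and Ugt genes are among the textbook targets of the pregnane X receptor.

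Which transcript a probe reads decides what a value means, so the probes that matter most are shown first. All positions are those of the array annotation, build mm9. The sequences below belong to a pair of first exons of the Ugt1a locus and to its shared end, and they are shown because this shared-end probe passed on p with PCN in WT mice and the first-exon probes did not. The first-exon probe of Ugt1a6b lay at chr1:90004249-90004308 and that of Ugt1a10, which also lists Ugt1a9, at chr1:89952780-89952839. The shared-end probe lay at chr1:90114900-90114959, on the plus strand like the others. Its accessions list Ugt1a6b alone, and it is placed in the shared end by its position just ahead of a probe that lists several Ugt1a genes. No letters are in capitals because no base is singled out.
Ugt1a6b first exon: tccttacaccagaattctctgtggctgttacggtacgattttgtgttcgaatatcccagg
Ugt1a10 first exon: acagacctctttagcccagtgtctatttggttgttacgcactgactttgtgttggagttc
Ugt1a shared end: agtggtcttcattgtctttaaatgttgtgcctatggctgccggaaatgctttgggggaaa

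The probe named Ugt1a6a was not specific to that enzyme. It lay at chr1:90116514-90116573, further along the shared end, and its accessions also belong to Ugt1a1, Ugt1a7c and Ugt1a10. A further probe at chr1:90115493-90115552 lists Ugt1a6a, Ugt1a6b, Ugt1a7c and Ugt1a10. Both can therefore read RNA of several Ugt1a genes at once. Ugt1a1, Ugt1a2 and Ugt1a7c were not measured as separate genes.

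Among the Ugt2b genes the closest pair was Ugt2b5 and Ugt2b37. Their probes agreed at 46 of 55 overlapping bases, with a longest identical run of 18. The 30 bases at which they were most alike are shown, with the 28 identical bases in lower case and the 2 that differ in capitals. A probe of Ugt2b5 or Ugt2b37 may hence take up some RNA of the other.
Ugt2b5: aactttcagcctcattctTatttatgaAcc
Ugt2b37: aactttcagcctcattctAatttatgaGcc

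The Ugt2b36 probe crossed a splice junction, with its outer ends at 87495455 and 87509913 on chromosome 5, and its accessions also include Ugt2b37. The probes of Ugt2a3 (chr5:87754406-87754465, minus strand) and Ugt2b34 (chr5:87318849-87318908, minus strand) listed no other gene. In the reference gene table Ugt2a3 stands between Ugt2b37 and Ugt2b38, and Ugt2b34 is the first of the 10 Ugt2 genes in that row.

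With PCN, Ugt2a3 was the 1 gene of the 7 that changed past both thresholds in WT mice, and it met neither in mice without the receptor. A gene is termed called where its adjusted p did not exceed 0.05 and its fold change was over 1.5. Ugt2b34 moved less but in both genotypes. Ugdh passed on p in Pxr-/- mice alone, but its changes were alike in size, at 0.36 in WT and 0.41 in Pxr-/- mice. The difference between these responses of Ugdh was 0.06 and was not called. The remaining genes did not pass in either genotype, although in Pxr-/- mice Ugt2b5 (0.42) and Ugt2b36 (0.37) had values of the size of those of Ugdh (0.41) and Ugt2b34 (0.37). All 7 were higher with PCN in WT mice, by a median of 0.34 (log2), where the median of all genes tested was -0.02 and 43.9% of them were higher.

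Ugt2a3 encodes an enzyme of the intestine and liver that conjugates bile acids among other substrates. Its normalised log2 signal in WT CONT had a lowest value of 5.94, a median of 6.23 and a highest of 6.68. The WT PCN arrays gave 6.86, 8.23, 8.45, 7.65 and 8.05. Every WT PCN array thus lay above every WT CONT array, although replicate 1 did so narrowly. In Pxr-/- CONT the lowest, median and highest values were 5.86, 6.19 and 7.49, and in Pxr-/- PCN they were 6.16, 6.34 and 6.87. These last groups overlapped almost completely. The highest Pxr-/- CONT value came from a single array, replicate 4, and the next one down was 6.64.

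The group means of Ugt2a3, in rising order, were 6.28 ± 0.25 in WT CONT (SD, n = 6), 6.38 ± 0.64 in Pxr-/- CONT (n = 6), 6.45 ± 0.32 in Pxr-/- PCN (n = 6) and 7.85 ± 0.63 in WT PCN (n = 5). The first 3 did not differ beyond their spread. PCN raised Ugt2a3 by 1.59 ± 0.27 in WT mice (log2, SE), that is 3.0-fold, with a limma adjusted p of 0.00235. In Pxr-/- mice the difference was 0.08 ± 0.26 (adjusted p = 0.904), with a 95% interval of -0.46 to 0.61. The share of all genes called was 1.05% in WT and 1.47% in Pxr-/- mice, beside 1 of the 7 genes in WT and 0 in Pxr-/- mice. Before adjustment, p lay under 0.05 for 5 of the 7 genes in WT and for 4 in Pxr-/- mice. The share of all genes under 0.05 before adjustment is not given, here or for the counts of this kind below. Those counts cannot be set against the shares of genes called.

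**Figure D1:**
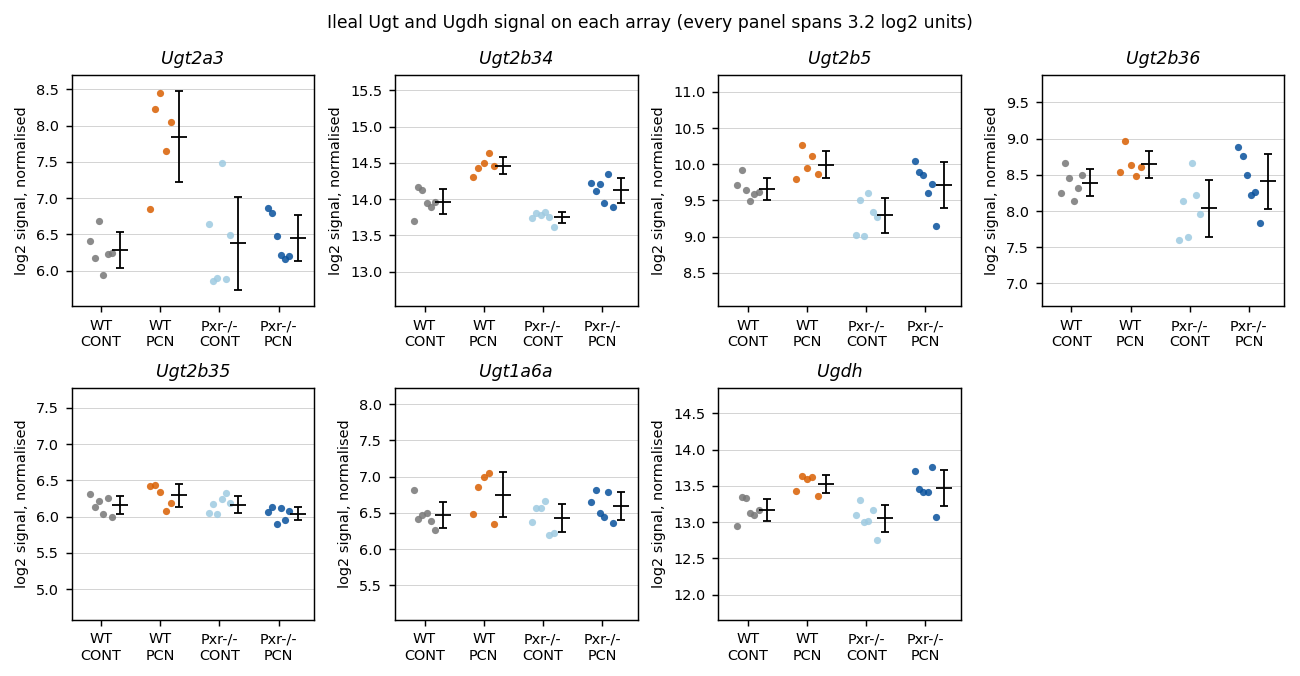
Normalised log2 signal of Ugt2a3, Ugt2b34, Ugt2b5, Ugt2b36, Ugt2b35, Ugt1a6a and Ugdh (brightest probe of each), 1 point per array, in the 4 groups. Black bars are the group mean and SD. Ugt2a3 stands higher in WT PCN, at 7.85, than in the other 3 groups, while Ugt2b34 and Ugdh are shifted by less in both genotypes.

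The difference between the responses of Ugt2a3 in the 2 genotypes was -1.51 ± 0.37 (log2), with a 95% interval of -2.29 to -0.73. Its unadjusted p from limma was 0.000557 and its adjusted p was 0.249, so the interaction did not pass when all probes were taken into account. Of all genes, 0.118% were called in that contrast, and of the 7 none was, with 2 of them under 0.05 before adjustment. With PCN, Pxr-/- mice had less Ugt2a3 than WT mice by 1.41 ± 0.27 (adjusted p = 0.01). Here 5 of 6 Pxr-/- PCN arrays lay below all WT PCN arrays, and the other one, at 6.87, was just above the lowest of them, at 6.86. Without PCN the genotypes differed by 0.10 ± 0.26 (adjusted p = 0.966). For Ugt2a3 in the genotypes compared with PCN, leaving out WT PCN replicate 3 gave -1.27 with an adjusted p of 0.051, which ended that call. The call was kept in 8 of 13 other ways of processing. It was lost with the scanner-processed signal (-1.79, adjusted p = 0.0514), with the slide as a fixed block (-1.18, adjusted p = 0.0959), with the replicate number as a block (-1.39, adjusted p = 0.0541), and within either wash batch (-1.64 and -1.22).

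The Ugt2a3 response in WT mice was as large within each wash batch, at 1.61 in batch 1 and 1.60 in batch 2. Taken alone, the batches held 2 against 3 and 3 against 3 arrays, and the adjusted p was 0.463 and 0.0895. The signal of Ugt2a3 was low, at a mean of 77.6 on the linear scale in WT CONT and 231 in WT PCN, where the median background of an array ranged from 19 to 28.5. With the scanner's background-subtracted signal the change in WT was 2.08.

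Ugt2b34 encodes a further enzyme of the Ugt2b group. Its lowest, median and highest log2 signals were 13.70, 13.96 and 14.16 in WT CONT, and the WT PCN arrays gave 14.30, 14.42, 14.50, 14.63 and 14.46. In Pxr-/- mice the corresponding values were 13.61, 13.77 and 13.83 with oil and 13.90, 14.16 and 14.35 with PCN. The PCN and CONT groups did not overlap in either genotype. PCN raised the mean by 0.49 ± 0.09 in WT (adjusted p = 0.00387, 1.41-fold) and by 0.37 ± 0.09 in Pxr-/- mice (adjusted p = 0.0186, 1.29-fold). Both passed on p and neither on fold. The responses differed by -0.12 (95% interval -0.38 to 0.13, adjusted p = 0.999), which leaves room for a larger response in WT of up to 0.38.

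The Ugt2b34 values were less even across wash batches than those of Ugt2a3. In WT the change was 0.63 within batch 1 and 0.39 within batch 2, and in Pxr-/- mice it was 0.19 and 0.55. Over 13 other ways of processing, the adjusted p of Ugt2b34 reached 0.225 in WT and 0.807 in Pxr-/- mice. Passing on p was thus not kept in all of them in either genotype. Centring each array on its median in place of quantile normalization gave 0.43 (adjusted p = 0.0339) in WT and 0.29 (adjusted p = 0.106) in Pxr-/- mice. Leaving out Pxr-/- PCN replicate 5 gave an adjusted p of 0.0551 in Pxr-/- mice.

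Ugdh oxidises UDP-glucose to UDP-glucuronate, the donor that all Ugt enzymes use. Its brighter probe (chr5:65804532-65804591, minus strand) read 12.94, 13.15 and 13.35 as the lowest, median and highest of WT CONT, and 13.44, 13.63, 13.59, 13.62 and 13.36 in WT PCN. In Pxr-/- mice these values were 12.75, 13.06 and 13.30 with oil and 13.07, 13.43 and 13.76 with PCN. The groups were barely separate in WT and overlapped in Pxr-/- mice through a single PCN array, replicate 6. The change was 0.36 ± 0.11 in WT (adjusted p = 0.14) and 0.41 ± 0.11 in Pxr-/- mice (adjusted p = 0.0327). The second Ugdh probe gave 0.36 and 0.40 (adjusted p = 0.14 and 0.0385).

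The Ugdh change in Pxr-/- mice was 0.15 within batch 1 and 0.68 within batch 2, against 0.46 and 0.29 in WT. Without Pxr-/- PCN replicate 6 it was 0.50 (adjusted p = 0.00867). The Ugdh call on p in Pxr-/- mice was lost with median centring (0.34, adjusted p = 0.134), with the scanner-processed signal (0.36, adjusted p = 0.0701) and with the 2 Pxr-/- groups fitted alone (adjusted p = 0.104). It was also lost without Pxr-/- CONT replicate 1 (adjusted p = 0.0546), 3 (0.0579) or 6 (0.0822) and without Pxr-/- PCN replicate 1 (0.0889), 2 (0.0536) or 5 (0.0958). Pxr-/- PCN replicate 6 had the lowest value of its group for 5 of the 7 genes, namely Ugt2b34, Ugt2b5, Ugt2b36, Ugt1a6a and Ugdh. Its enterocyte marker sum, 19.50, lay inside the range of the other arrays of its group.

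Counted on adjusted p alone, 2 of 7 genes passed in WT (Ugt2a3 and Ugt2b34), where 1.84% of all genes did. In Pxr-/- mice 2 of 7 passed (Ugt2b34 and Ugdh), where 5% did. With PCN in both, 1 of 7 passed between the genotypes (Ugt2a3), where 0.874% did. PCN and CONT arrays did not overlap for 3 of 7 genes in WT (Ugt2a3, Ugt2b34 and Ugdh), against 3.52% of all genes, and for 1 of 7 in Pxr-/- mice (Ugt2b34), against 3.18%. Between the genotypes with PCN no gene of the 7 was free of overlap, against 1.29% of all genes.

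Ugt2b5 and Ugt2b36, relatives within the Ugt2b group, were not called in any contrast. Ugt2b5 read 9.66 ± 0.15 in WT CONT and 10.00 ± 0.19 in WT PCN, with 9.29 ± 0.25 and 9.71 ± 0.32 in Pxr-/- mice. Its change with PCN was 0.34 ± 0.14 in WT (adjusted p = 0.313) and 0.42 ± 0.13 in Pxr-/- mice (adjusted p = 0.077). Within the wash batches the Pxr-/- value was 0.06 and 0.77. Ugt2b36 read 8.39 ± 0.19 and 8.65 ± 0.19 in WT and 8.04 ± 0.40 and 8.41 ± 0.39 in Pxr-/- mice. Its changes were 0.26 ± 0.18 (adjusted p = 0.622) and 0.37 ± 0.17 (adjusted p = 0.233), and the latter was -0.07 in batch 1 and 0.81 in batch 2.

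Ugt2b35, another Ugt2b gene, had a low signal that stayed near 6.16 ± 0.12 in WT CONT, 6.29 ± 0.16 in WT PCN, 6.17 ± 0.11 in Pxr-/- CONT and 6.04 ± 0.09 in Pxr-/- PCN. The values with PCN were 0.14 ± 0.08 in WT (adjusted p = 0.506) and -0.12 ± 0.07 in Pxr-/- mice (adjusted p = 0.368). It was the 1 gene of the 7 with a negative value in Pxr-/- mice, and neither value passed. Over the 7 genes, the median change in Pxr-/- mice was 0.37, beside 0.00 over all genes tested, of which 50.1% were higher.

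**Figure D2:**
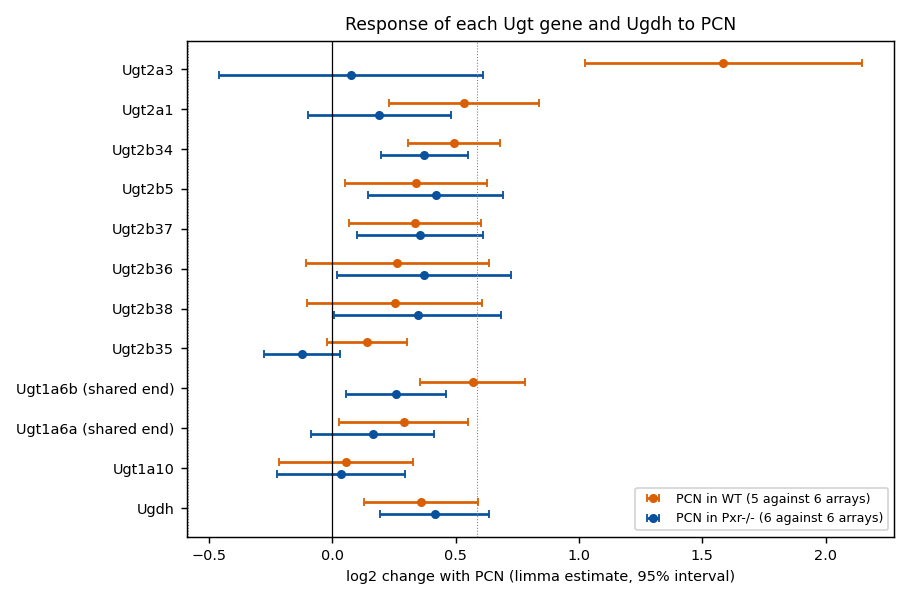
Change in log2 signal with PCN in WT and in Pxr-/- mice for each measured Ugt gene and Ugdh, as the limma estimate with its 95% interval. Dotted lines mark the 1.5-fold threshold. Ugt2a3 is the gene whose WT interval, which starts at 1.02, lies wholly beyond the threshold, while its Pxr-/- interval spans 0.

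In mice that had received oil alone, genotype made no called difference to any of the 7 genes, where 0.214% of all genes were called, with 2 of the 7 under 0.05 before adjustment. The lowest adjusted p was that of Ugt2b5, which was lower in Pxr-/- mice by 0.37 ± 0.13 (adjusted p = 0.348). Ugt2b36 differed by -0.35 ± 0.17 (adjusted p = 0.564) and Ugt2b34 by -0.21 ± 0.09 (adjusted p = 0.433). With PCN, all 7 genes were lower in Pxr-/- than in WT mice, by a median of 0.26 on the log2 scale. Over all genes tested the median of that contrast was 0.01, and 54.8% were higher in Pxr-/- mice. Of the 7, Ugt2a3 alone was called, where 0.542% of all genes were. The next largest difference with PCN was that of Ugt2b34, -0.33 ± 0.09 (adjusted p = 0.119).

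At the Ugt1a locus, 2 of the 3 probes in the shared end passed on p with PCN in WT mice, and neither of the 2 first-exon probes did. The difference between probes was not tested. The most 5′ of the shared-end probes read 12.11, 12.26 and 12.44 as the lowest, median and highest of WT CONT, and 12.63, 13.20, 12.75, 13.02 and 12.57 in WT PCN. It read 11.92, 12.10 and 12.38 in Pxr-/- CONT and 11.98, 12.32 and 12.55 in Pxr-/- PCN. The WT PCN arrays lay above all other arrays. The change was 0.57 ± 0.12 in WT (adjusted p = 0.0103, 1.49-fold), just short of the fold threshold, and 0.19 ± 0.11 in Pxr-/- mice (adjusted p = 0.343).

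The middle probe of the shared end, at chr1:90115493-90115552, gave 0.57 ± 0.10 in WT (adjusted p = 0.00378, 1.48-fold) and 0.26 ± 0.10 in Pxr-/- mice (adjusted p = 0.144). Between the genotypes with PCN, the first of these probes was lower in Pxr-/- mice by 0.53 ± 0.12 (adjusted p = 0.0296) and the middle one by 0.44 ± 0.10 (adjusted p = 0.0484). For both, 6 of 6 Pxr-/- PCN arrays lay below all WT PCN arrays, where 1.29% of all genes had no overlap. The margin was narrow, with 12.5456 below 12.5675 for the first probe and 14.5746 below 14.575 for the middle one. The difference between the responses was -0.38 and -0.31, with an adjusted p of 0.999 each. For the middle probe, which the array names Ugt1a6b, the Pxr-/- change was 0.00 within batch 1 and 0.52 within batch 2, against 0.73 and 0.44 in WT. The comparison of the genotypes with PCN was -0.71 in batch 1 and -0.22 in batch 2. For this Ugt1a6b probe its adjusted p exceeded 0.05 in 19 of the 23 fits that left out an array, with values of -0.46 to -0.36 and adjusted p up to 0.156, and was 0.102 with median centring, so passing on p depended on single arrays in the genotypes compared with PCN. Its change in WT passed in all 23 such fits.

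The first-exon probe of Ugt1a6b was dim, at a mean of 58.4 on the linear scale in WT CONT and 64.7 in WT PCN, which limits the size of change it can show. The first exon of Ugt1a6b gave 0.15 ± 0.12 in WT (adjusted p = 0.704), with a 95% interval of -0.11 to 0.40, and that of Ugt1a10 gave 0.05 ± 0.13 (adjusted p = 0.931), with an interval of -0.22 to 0.33. Both were printed above with the shared end. The probe named Ugt1a6a, at the far 3′ end, had a low signal (6.47 ± 0.18 in WT CONT, 6.75 ± 0.31 in WT PCN) and gave 0.29 ± 0.13 in WT (adjusted p = 0.359) and 0.16 ± 0.12 in Pxr-/- mice (adjusted p = 0.483). Which first exon supplied the transcripts read at the shared end was not measured, since no probe lay in the first exons of Ugt1a1, Ugt1a2 or Ugt1a7c by name.

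**Figure D3:**
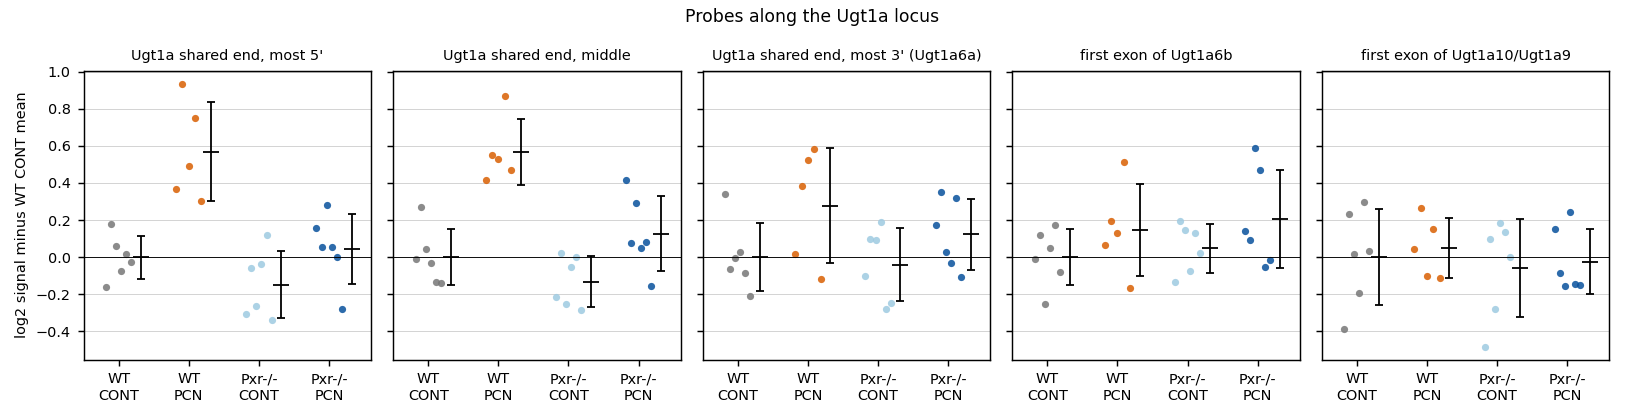
Log2 signal of 5 probes along the Ugt1a locus on each array, each probe set to 0 at its WT CONT mean; black bars are the group mean and SD. The first 2 panels, both in the shared end, show WT PCN above the other groups, by 0.57 over WT CONT, and the panels of the most 3′ shared-end probe and the first exons show overlapping groups.

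Of 13 further Ugt family genes, 9 had a probe and 5 of these passed the filter on dim signal (Ugt1a6b, Ugt1a10, Ugt2a1, Ugt2b37 and Ugt2b38), of which none was called in any of the 5 contrasts, with 3 under 0.05 before adjustment in each genotype. All 5 were higher with PCN in both genotypes, by a median of 0.34 in WT and 0.26 in Pxr-/- mice. Ugt2a1, whose probe also lists Ugt2a2, changed by 0.53 ± 0.15 in WT (adjusted p = 0.0843), with WT PCN at 10.25 ± 0.14 and WT CONT at 9.72 ± 0.15, and by 0.19 ± 0.14 in Pxr-/- mice (adjusted p = 0.483). The immediate neighbours of Ugt2a3 did not share its size of change, with 0.34 ± 0.13 for Ugt2b37 (adjusted p = 0.273) and 0.25 ± 0.17 for Ugt2b38 (adjusted p = 0.62) in WT. The difference between these genes was not tested.

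Promoters are shown for genes of the Ugt2 row with large, small and uncalled values. The 100 bases before the annotated start of Ugt2a3, Ugt2b34, Ugt2b5 and Ugt2b36 are given 5′ to 3′ on the gene's strand, from RefSeq, build GRCm38.p6. Capitals mark the half-site AGGTCA, on either strand, that nuclear receptors such as the pregnane X receptor can bind. The windows were chr5:87337196-87337295 for Ugt2a3, chr5:86906938-86907037 for Ugt2b34, chr5:87140341-87140440 for Ugt2b5 and chr5:87092556-87092655 for Ugt2b36, all on the minus strand.
Ugt2a3: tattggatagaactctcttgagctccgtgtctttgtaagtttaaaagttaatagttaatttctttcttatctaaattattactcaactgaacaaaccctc
Ugt2b34: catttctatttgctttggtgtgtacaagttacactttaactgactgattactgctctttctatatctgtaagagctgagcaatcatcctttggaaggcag
Ugt2b5: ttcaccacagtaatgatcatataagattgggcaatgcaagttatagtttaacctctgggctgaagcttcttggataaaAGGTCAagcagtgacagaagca
Ugt2b36: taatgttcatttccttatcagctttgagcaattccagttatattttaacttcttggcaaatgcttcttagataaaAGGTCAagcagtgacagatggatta

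Ugt2b5 and Ugt2b36 shared a run of 24 bases in these windows, with the half-site 22 bases before the start in Ugt2b5 and 25 before it in Ugt2b36. Ugt2a3 shared no run longer than 7 with any of the other members' windows. A promoter of 300 bases, 250 before the start and 50 after it, was found for all 10 listed genes. Each was searched on both strands for pairs of the half-sites AGTTCA or AGGTCA, as direct repeats spaced by 3 or 4 bases and everted repeats spaced by 6 or 8. None of the 10 held such a pair, and 20 of 32851 promoters in the table did (0.0609%). A single half-site lay in 5 of the 10 (Ugt1a1, Ugt1a7c, Ugt2b35, Ugt2b36 and Ugt2b5) and in 27.7% of all promoters. Ugt2a3, Ugt2b34 and Ugdh held none in this window.

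Of 6 genes that supply the sugar donor, Ugdh included, none was called in either genotype, and 2 were under 0.05 before adjustment in each. In Pxr-/- mice Ugdh and Pgm1 passed on adjusted p. Pgm1, which interconverts glucose phosphates, changed by 0.22 ± 0.08 in WT (adjusted p = 0.258) and by 0.39 ± 0.08 in Pxr-/- mice (adjusted p = 0.00969, under the fold threshold). Ugp2, which makes UDP-glucose, gave -0.05 and -0.06, and Slc35d1, which carries UDP-glucuronate into the endoplasmic reticulum, gave 0.17 and 0.02, none of which passed. Of the 4 genes of glucuronide hydrolysis and the branch towards ascorbate, none was called (0 under 0.05 before adjustment in WT and 1 in Pxr-/- mice), and the largest value in WT was that of Gulo, 0.17 ± 0.12 (adjusted p = 0.636).

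Export of the finished glucuronides was represented by 5 pumps, of which Abcc2, a pump of the apical membrane, was called. Its log2 signal was 10.06, 10.26 and 10.72 as the lowest, median and highest of WT CONT, and 11.21, 12.37, 11.65, 11.55 and 11.63 in WT PCN, with no overlap. The change was 1.36 ± 0.23 in WT (adjusted p = 0.00235, 2.57-fold) and 0.70 ± 0.22 in Pxr-/- mice (adjusted p = 0.0796). With PCN, Pxr-/- mice had less Abcc2 than WT mice by 1.29 ± 0.23 (adjusted p = 0.00564), and by 1.08 (adjusted p = 0.0812) without WT PCN replicates 2 and 3. Part of this gap was there with oil alone, where the Pxr-/- minus WT value of Abcc2 was -0.62, which was not called. The difference between its responses in the genotypes was -0.67, also not called. The other 4 pumps were not called, and Abcg2 gave -0.17 ± 0.10 in WT and -0.40 ± 0.10 in Pxr-/- mice (adjusted p = 0.557 and 0.0288, the second under the fold threshold).

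Among 10 tested genes of the other conjugation routes, Sult1d1, a sulfotransferase, was called in WT at 0.81 ± 0.12 (adjusted p = 6e-04), with 0.13 ± 0.12 in Pxr-/- mice (adjusted p = 0.577). It was lower in Pxr-/- than in WT mice with PCN by 0.65 ± 0.12 (adjusted p = 0.0073), and by 0.60 without the same 2 arrays (adjusted p = 0.0899). Of 9 transcription factors known to control Ugt genes none was called (1 under 0.05 before adjustment in WT and 3 in Pxr-/- mice), and the largest value in WT was that of Ppara, 0.37 ± 0.17 (adjusted p = 0.375). Nr1i2, the deleted gene, gave -0.41 ± 0.15 between the genotypes given oil alone (adjusted p = 0.336), with overlapping groups, so its probe did not check the genotype. Where that probe lies relative to the deleted part is not given in the sources used here.

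**Figure D4:**
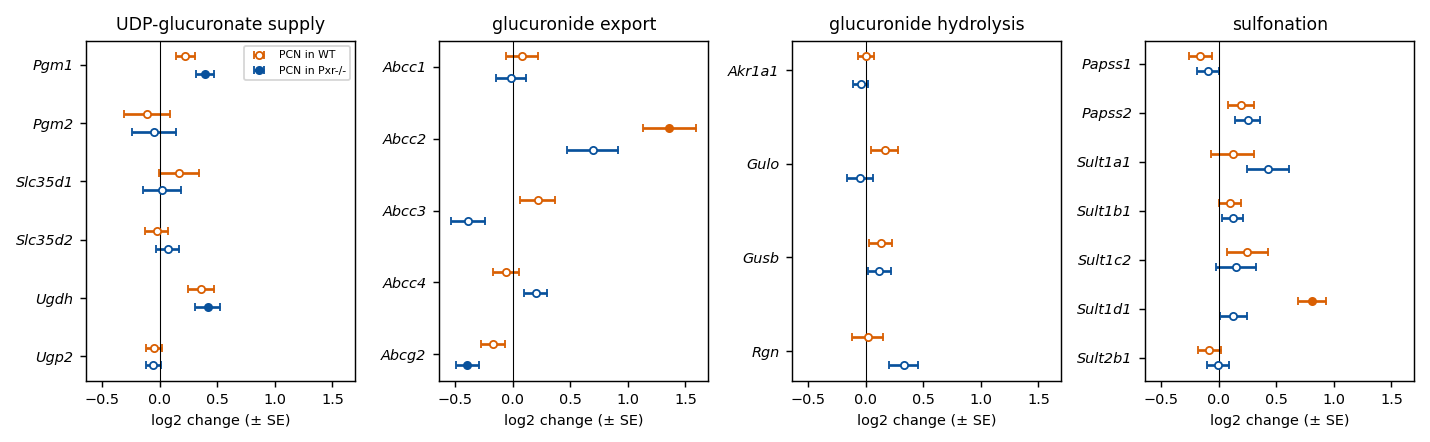
Change in log2 signal with PCN (limma estimate ± SE) for genes of UDP-glucuronate supply, glucuronide export, glucuronide hydrolysis and sulfonation, in WT and Pxr-/- mice. Filled points passed an adjusted p of 0.05; Abcc2 at 1.36 and Sult1d1 at 0.81 in WT lie beyond the 1.5-fold threshold as well.

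The genes whose signals ran closest to that of Ugt2a3 over the 23 arrays were found by the root mean squared difference of log2 signal, after each probe was centred on its mean and adjusted for wash batch. They were Cpm (0.39), Ces2f (0.41), Abcc2 (0.43), Gdpd5 (0.47) and H2-Oa (0.47), where the SD of Ugt2a3 itself was 0.77 and the median difference over 17720 genes was 0.78. All arrays of all groups entered this measure, so it largely restates the group pattern. Cpm, a membrane carboxypeptidase, changed by 1.34 in WT (adjusted p = 1.59e-05) and 0.00 in Pxr-/- mice, and Ces2f, a carboxylesterase, by 1.22 (adjusted p = 1.59e-05) and 0.16. Gdpd5 changed by 0.86 in WT (adjusted p = 0.00879) and 0.20 in Pxr-/- mice. H2-Oa did not pass in WT, at 1.01 (adjusted p = 0.0866), and gave 0.43 in Pxr-/- mice. The values of Abcc2 are given above.

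The make-up of the samples was read from marker lists beside these results. The 4 ileal enterocyte markers (Fabp6, Slc10a2, Slc51a and Slc51b) were above background on every array, and their summed log2 signal ran from 18.87 to 19.39. The sum of 8 enterocyte markers had means of 19.49, 19.47, 19.58 and 19.52 in WT CONT, WT PCN, Pxr-/- CONT and Pxr-/- PCN. In bulk tissue, fewer cells of a type and less RNA per cell cannot be told apart. The sum of 8 B cell markers was 10.72 to 11.20 in WT CONT and 10.98 to 13.77 in WT PCN, with replicates 2 and 3 at 13.74 and 13.77, and 10.58 to 11.15 and 10.67 to 12.32 in Pxr-/- mice. These replicates also had the highest Ugt2a3 signals, 8.23 and 8.45. WT PCN replicates 1, 4 and 5, with B cell sums of 11.08, 10.98 and 11.28, had Ugt2a3 signals of 6.86, 7.65 and 8.05, where the highest WT CONT array had 6.68. Leaving out WT PCN replicates 2 and 3 together, a setting chosen after seeing the data, gave an Ugt2a3 change of 1.26 in WT (adjusted p = 0.048) and a difference of -1.09 between the genotypes with PCN (adjusted p = 0.195), so that the first call held and the second did not. Over the 7 genes, the counts called were then 1 and 0, and the share of all genes called in that setting is not given here.

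Hepatocyte markers, 4 of 4 measured, had a mean sum of 12.44 in WT CONT, 11.96 in WT PCN, 11.73 in Pxr-/- CONT and 11.39 in Pxr-/- PCN. This sum mostly follows Serpina1c, at a mean log2 signal of 11.72, where Alb, Ttr and Apoh had 6.43, 6.96 and 7.05. On Pxr-/- CONT replicate 4, which had the highest Ugt2a3 signal of its group, the sum was 12.47, also the highest of that group. The sum of 6 neutrophil and macrophage markers went from a mean of 13.35 to 13.57 with PCN in WT and from 13.25 to 13.81 in Pxr-/- mice. A sum follows its brightest markers, and single ones changed by more. All 6 were higher with PCN, by 0.05 to 2.16 in WT and by 0.28 to 2.91 in Pxr-/- mice. Of these, 2 and 3 were called, where 1.05% and 1.47% of all genes were. The sum of 6 smooth muscle markers went from 17.50 to 17.81 in WT and from 17.60 to 18.06 in Pxr-/- mice. The sum of 6 goblet and Paneth cell markers went from 19.61 to 19.38 in WT and from 19.52 to 19.27 in Pxr-/- mice. Its members did not move together, and 2 of 6 were higher with PCN in each genotype. Their changes ran from -0.37 to 0.21 in WT and from -0.63 to 0.75 in Pxr-/- mice. The sum of 3 tested colon markers was highest in Pxr-/- PCN replicate 3, at 14.25, where that group's median was 12.35. The part of these differences in the Ugt values was not tested.

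**Figure D5:**
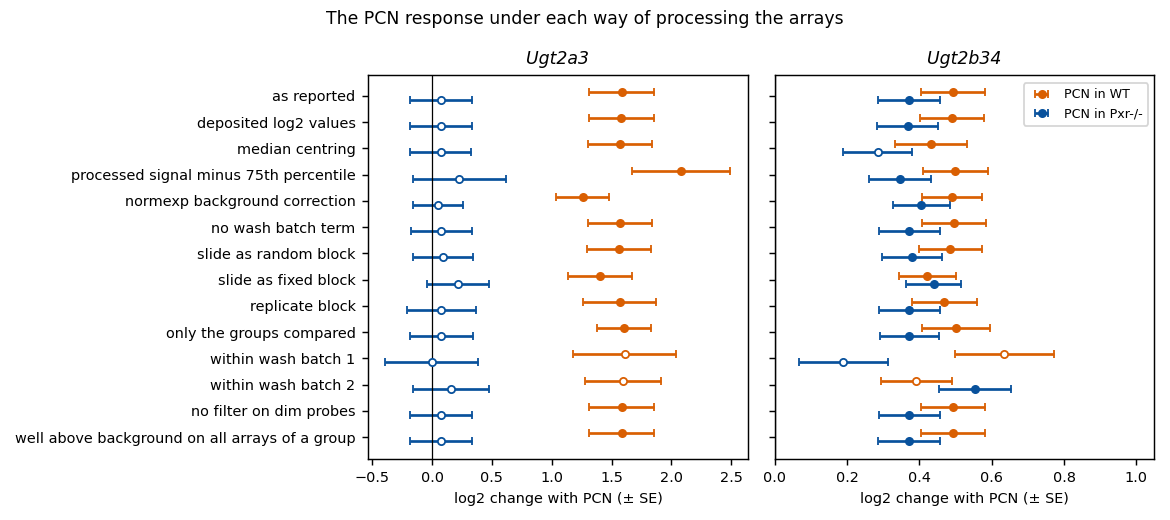
Change in log2 signal of Ugt2a3 and Ugt2b34 with PCN in WT and Pxr-/- mice under each way of processing the arrays (estimate ± SE). Filled points passed an adjusted p of 0.05. The WT change of Ugt2a3 runs from 1.26 to 2.08 and has open points within the single wash batches alone. The WT change of Ugt2b34 runs from 0.39 to 0.63, with an adjusted p of up to 0.225.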

How the data were processed

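The scanner intensity of each spot was read by the authors with Agilent Feature Extraction 10.10.1.1, per the labels, and is not background-subtracted. The deposited table holds the authors' log2 values of 37161 probes, filtered, corrected for wash batch and normalised with CrossNorm. Scanner flags (well above background, outlier) are from the deposited files.

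Here the median intensity was put on the log2 scale, control spots and outlier spots were left out, spots of a probe were averaged and arrays were quantile normalized. A probe was tested when well above background on at least 50% of the arrays of a group, which left 37591 of 56605 probes. limma 3.58.1 (R 4.3.3) was fitted to 23 arrays with group and wash batch, 2-sided, with Benjamini-Hochberg adjustment over all tested probes. Named were all listed genes, called genes of each pathway list (otherwise the largest in WT), Nr1i2, and the 5 genes closest to Ugt2a3. Members and lists were chosen with earlier results of these data known. The fit was tested on simulated data. Each sample is 1 mouse, and the number of arrays limits the precision. Alternatives were the authors' log2 values, other backgrounds, scalings, filters, thresholds and blocks, single wash batches and each array left out. Settings for Ugt1a6b, Abcc2 and Sult1d1, and the one without WT PCN replicates 2 and 3, were added after seeing the data. A gene of the other conjugation routes is not reported here.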

Additional observations from a re-analysis of the deposited data

Results flagged for a closer look

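The second Ugdh probe had 1 Pxr-/- PCN array, replicate 6, at 12.89, far below the other 5 arrays of its group. It was the 1 such array among 32 groups of values examined over the 8 probes, and chance flags about 1 in 20 groups. The brighter Ugdh probe read 13.07 on the same array.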

How the results depend on the processing

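The WT response of Ugt2a3 ran from 1.26 to 2.08 over 13 alternatives and was called in 11 of them, and in 23 of 23 fits that left out an array (1.44 to 1.82). The number of genes called in WT was 0 within wash batch 1, 0 within wash batch 2 and 2 with no fold threshold. In Pxr-/- mice it was 1 within wash batch 2 (Ugdh, 0.68) and 2 with no fold threshold. Between the genotypes with PCN it was 0 with the processed signal scaled to the 75th percentile, with the slide as a fixed block, within wash batch 1, within wash batch 2 and at an adjusted p of 0.01, and over the fits that left out an array it ran from 0 to 1, with 0 without WT PCN replicate 3. It was also 0 with WT PCN replicates 2 and 3 both left out. Apart from the setting with no fold threshold, the share of all genes called under these settings is not given here. These counts therefore have no background beside them. Whether the replicate numbers pair the samples is not settled. Deviations of same-numbered arrays correlated by -0.205 to 0.434, and 8 of 23 arrays matched their own number best. The count that would match without pairing was not worked out, so this check cannot decide. With the number as a block the count between the genotypes with PCN was 0 (Ugt2a3 -1.39, adjusted p = 0.0541), and the WT count stayed at 1. The following uncalled values turned sign, and the cause was not tested. In wash batch 1 they were Ugt2a3 (-0.0037 in Pxr-/- with PCN, -0.030 between the genotypes given oil), Ugt2b36 (-0.067 in Pxr-/-) and Sult1d1 (-0.077 in Pxr-/-). Also in that batch were Ugdh (0.012 between the genotypes given oil) and the interactions of Ugt2b5 (-0.31), Ugt2b36 (-0.22) and Ugdh (-0.31). In wash batch 2 they were the interactions of Ugt2b34 (0.16) and Ugt1a6a (0.12), and Ugt2b35 between the genotypes given oil (-0.052). Ugt1a6a (0.080) and Ugdh (0.15) turned there between the genotypes with PCN. With the slide as a fixed block the interaction of Ugt2b34 was 0.018, and with the processed signal that of Ugdh was -0.0057. Fits leaving out an array gave ranges across 0 for Ugt1a6a (-0.10 to 0.021), Ugt2b35 (-0.032 to 0.034) and Ugt2a3 (-0.12 to 0.22) between the genotypes given oil. Such fits did so too for Ugt2a3 in Pxr-/- mice (-0.049 to 0.30) and the interactions of Ugdh (-0.0078 to 0.13) and Ugt2b36 (-0.0037 to 0.24). The range of Ugdh between the genotypes with PCN (-0.12 to 0.021) also crossed 0. Low signal limits the size of the Ugt2a3, Ugt2b35, Ugt1a6a and Ugt1a6b first-exon changes.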
